A study of Mus musculus with 7 samples.

Results

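AMPA receptors are the glutamate-gated channels that carry most fast excitatory transmission in the cortex. Each receptor is a tetramer of the subunits GluA1 to GluA4, encoded by Gria1 to Gria4. It is surrounded by auxiliary proteins that control its export from the endoplasmic reticulum, its anchoring at the synapse and its gating. The genes described here are the 4 subunit genes, 3 genes of transmembrane AMPA receptor regulatory proteins or TARPs (Cacng2, Cacng3 and Cacng8), 2 cornichon genes (Cnih2 and Cnih3) and Shisa9. They were chosen by name as a gene family, and the rule used no measured value, though earlier results of these data were known when they were chosen. All 10 matched 1 row each among the 43626 gene identifiers of the table, and all 10 were among the 17670 genes that were expressed highly enough to be tested.

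All mice were C57BL/6J males 8 weeks old, and the RNA was from their prefrontal cortex. There were 4 libraries of the genotype written hDISC1AA/+ and 3 of wild-type mice (WT). The study's title concerns phosphorylation of DISC1, a scaffold protein of neurons, in the polarization of cortical neurons. The labels do not describe how the altered allele was made, and no treatment or other allele is named for either group. The comparison asks whether transcripts of this receptor family differ in the adult prefrontal cortex between the genotypes. The p-values set each difference between the groups against the spread between these libraries. The labels do not say that each library came from a separate animal, so this spread may be partly technical.

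Values are the authors' normalized counts, which are reads per gene divided by 1 size factor per library. The libraries held 33512557 to 36005116 reads assigned to genes, except WT replicate 1 with 63845254. For 1 hDISC1AA/+ column the number in its name is in no title of the labels, and it is called the unnumbered hDISC1AA/+ library. In each sentence below that lists the 4 hDISC1AA/+ values, replicate 1 is followed by the unnumbered library, replicate 3 and replicate 4. Markers of excitatory cortical neurons were present in all libraries, at 2615 normalized counts or more for each of 6 genes, and no marker gene of the 12 lists examined was at 0 in all libraries. Single libraries of both genotypes stood apart. In WT replicate 1 the summed count of 7 oligodendrocyte markers was 129251, against 36244 to 46868 in the other 6 libraries, and that of 5 endothelial markers was 1354, against 5057 to 6698. A smooth fit on GC and length explained a fraction of 0.359 of the gene-wise deviations in hDISC1AA/+ replicate 1 and 0.12 or less in each other library, and that library also had 1.94% mitochondrial reads, against 5.14% to 6.94%. The 5 olfactory bulb markers summed to 836 to 8772 in hDISC1AA/+ and 1490 to 5493 in WT. The 6 excitatory neuron markers summed to 126299 to 171365 in hDISC1AA/+ and 131237 to 148515 in WT, and the 6 astrocyte markers to 122508 to 159702 in hDISC1AA/+ and 149290 to 222451 in WT. The part of these differences in the results below was not tested. In bulk tissue, fewer cells of a type and less RNA per cell cannot be told apart.

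The part of each subunit that lines the pore is encoded by nearly the same bases in the 4 subunit genes, and it holds the codon at which GluA2 differs in function. The coding sequences around this codon are shown because the share of Gria2 among the subunits, given further below, matters through it. In Gria2 transcripts the enzyme ADAR2, encoded by Adarb1, edits the middle base of the capital codon, so that glutamine is replaced by arginine and the receptor hardly passes calcium. The windows were read from GENCODE M21 transcripts of GRCm38, each of 57 bases over 2 neighbouring exons, and the positions are those of the outermost bases with the intron between them.
Gria1 (chr11:57243067-57283513, plus strand): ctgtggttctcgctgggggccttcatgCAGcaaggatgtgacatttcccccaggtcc
Gria2 (chr3:80702653-80706940, minus strand): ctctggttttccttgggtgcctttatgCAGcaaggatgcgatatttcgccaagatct
Gria3 (chrX:41610238-41620800, plus strand): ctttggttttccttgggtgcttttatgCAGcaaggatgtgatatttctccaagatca
Gria4 (chr9:4462101-4464166, minus strand): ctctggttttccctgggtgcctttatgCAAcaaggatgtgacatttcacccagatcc
Gria2 and Gria3 shared 52 of the 57 bases and Gria1 and Gria2 shared 45. The codon is the same in Gria1, Gria2 and Gria3, and Gria4 has the other codon for glutamine. Reads were counted per gene, so edited and unedited Gria2 RNA are not separated in these values, nor are the flip and flop splice forms of the subunits.

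The last bases of the coding regions group the members in another way. The last 4 codons of several of these genes encode a short tail that binds PDZ domains of synaptic scaffold proteins, and these codons are in capitals before the stop codon.
Gria1 (chr11:57327617-57327646, plus strand): gggatgcccttgggaGCCACAGGATTGtaa
Gria2 (chr3:80689106-80689135, minus strand): gtatatggcatcgagAGTGTTAAAATTtag
Gria3 (chrX:41672435-41672464, plus strand): gtgtatggaacagaaAGTGTTAAGATCtag
Cacng2 (chr15:77995149-77995178, minus strand): acagccaaccgccggACCACGCCCGTAtga
Cacng3 (chr7:122768817-122768846, plus strand): ccggccaacagacgtACCACGCCTGTCtga
Cacng8 (chr7:3415576-3415605, plus strand): acgctcaacaggaaaACCACGCCCGTGtag
Shisa9 (chr16:12267774-12267803, plus strand): actaacagcaaaacaGAAGTGACTGTCtga
Gria2 and Gria3 encode the same tail with 10 of 12 bases shared, and it is the tail bound by GRIP and PICK1. The 3 TARP genes encode another tail, which binds PSD-95, and they shared 10 or 11 of 12 bases pair by pair. The tails of Gria1 and Shisa9 differ from both.

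All 10 genes were well expressed, and their order per length was led by Cnih2. Per kilobase of merged exons, Cnih2, which encodes an exporter of AMPA receptors that also slows their closing, had 5135 ± 1435 normalized counts in hDISC1AA/+ and 4543 ± 412 in WT (SD, n = 4 and 3). It lay within the top 1.23% of the genes ranked, and its range did not overlap with that of the next gene, Gria1. Gria1, the subunit recruited to synapses in plasticity, had 2481 ± 209 per kilobase in hDISC1AA/+ and 2563 ± 230 in WT. Cacng3, encoding TARP gamma-3, had 2323 ± 316 per kilobase in hDISC1AA/+ and 2116 ± 219 in WT. Below these, the mean over the 7 libraries was 1835 per kilobase for Gria2, 1387 for Gria3, 1316 for Cnih3, 1117 for Cacng8 and 901 for Gria4. Shisa9 followed with 712 and Cacng2, encoding stargazin, with 593, which still placed it in the top 17.6%. From Gria1 down, the ranges of every 2 neighbours in this order overlapped over the 7 libraries. The order also depended on the length used. Per kilobase of the longest annotated transcript, Gria2 averaged 2751, Gria1 2742 and Gria3 2627, and Cacng3 came after them with 2235.

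No difference between the genotypes in this family was large enough, beside the spread of the libraries, to pass the test. At an adjusted p of 0.05, limma called 0 of the 17670 genes (0%) and 0 of the 10 members. At an unadjusted p under 0.05 there were 431 genes (2.44%) and no member. Run on the reads themselves, edgeR passed 0 of 17540 genes and DESeq2 0 of 28315, and their unadjusted p was under 0.05 for 452 and 604 genes. Fold changes are hDISC1AA/+ minus WT on the log2(normalized count + 1) scale, and the members lay between -0.19 and 0.14. Of the members, 7 were lower and 3 higher in hDISC1AA/+, where 52.2% of all genes tested were lower and 47.8% higher. Their median was -0.037, beside -0.0092 over all genes tested. The 95% confidence interval lay within 1.5-fold in either direction for 9 of 10 members, all but Gria2, as it did for 54% of all genes tested. It lay within 2-fold for all 10 members and for 77.4% of all genes. At each gene's fewest reads the Poisson error was 0.758% to 2.19%, and the coefficient of variation between libraries was 8.44% to 27.9% in hDISC1AA/+ and 5.98% to 17.5% in WT for the members other than Gria3. The exception was Gria3 in WT, where that spread (0.906%) was of the size of the Poisson error (0.944% at its fewest reads, in hDISC1AA/+ replicate 1).

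**Figure D1:**
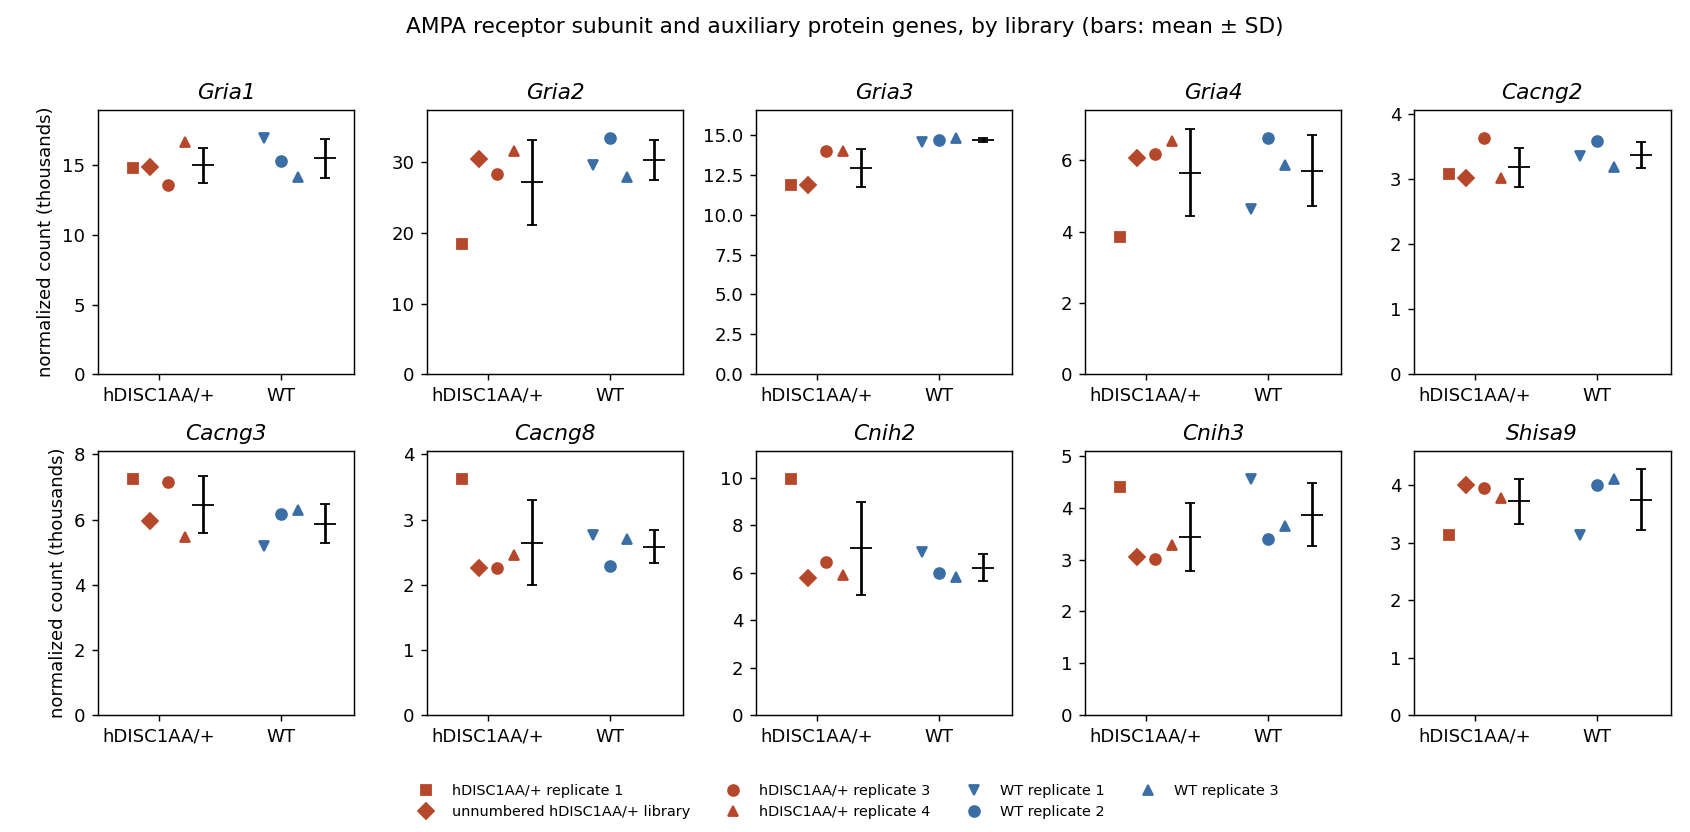
Normalized counts (kilocounts, linear axes from 0) of the 10 genes, with 1 point per library, hDISC1AA/+ left and WT right, and the mean ± SD beside each group (n = 4 and 3). The groups overlap in all panels but that of Gria3, where the 4 hDISC1AA/+ libraries lie at 11864.5 to 13986 and the 3 WT libraries at 14536.5 to 14802.

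Gria3, an X-linked subunit gene (ENSMUSG00000001986, chrX:41400854-41678601, GRCm38) whose loss causes intellectual disability in people, was the only member whose groups did not overlap. It had 11864.5, 11897, 13986 and 13978.5 normalized counts in hDISC1AA/+, against 14536.5, 14672 and 14802 in WT replicates 1 to 3. The WT values lay within 1% of their mean (coefficient of variation 0.906%), while the hDISC1AA/+ values formed a lower and a higher pair, with a coefficient of variation of 9.38%. The mean was 12932 ± 1213 in hDISC1AA/+ and 14670 ± 133 in WT, which is a log2 fold change of -0.19 (95% CI -0.40 to 0.029) with a limma adjusted p of 0.974. Groups without overlap and lower in hDISC1AA/+ were found for 501 of the genes tested, or 2.84%, and groups without overlap and higher for 2.2%, with no member among these. Without hDISC1AA/+ replicate 1 the log2 fold change was -0.15. With the levels corrected for GC and length it was -0.012 and the groups overlapped, with 11139 to 18384 in hDISC1AA/+ and 12876 to 14351 in WT. The 18384 was that of hDISC1AA/+ replicate 1, which the correction moved from the lowest to the highest library. The other hDISC1AA/+ libraries lay at 11139 to 13091 after it, and of these only replicate 3 was above the lowest WT library.

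Gria2, which makes receptors impermeable to calcium (ENSMUSG00000033981, chr3:80681450-80802835), had the interval that reached furthest from 0 in the family, and the only one beyond 1.5-fold. It had 18404, 30423, 28304 and 31576 normalized counts in hDISC1AA/+, against 29599, 33436.5 and 27989 in WT. The low mean of 27177 ± 6003 in hDISC1AA/+, beside 30342 ± 2799 in WT, came from replicate 1. The other 3 hDISC1AA/+ libraries lay within the range of WT. The difference on the log2 scale was -0.19 (95% CI -0.60 to 0.23) with all libraries, at a limma adjusted p of 0.974, and -0.0089 without hDISC1AA/+ replicate 1.

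Gria1 (ENSMUSG00000020524, chr11:57011387-57330244) and Gria4 (ENSMUSG00000025892, chr9:4417896-4796234), a subunit prominent in fast-spiking interneurons, had similar means in both genotypes. Gria1 had 14829, 14896, 13588 and 16666 normalized counts in hDISC1AA/+, against 16946, 15340 and 14183 in WT. The log2 fold change of Gria1 was -0.047 (95% CI -0.28 to 0.18), so a difference of 1.5-fold lay outside its interval. Gria4 had 3847, 6059, 6189 and 6539 normalized counts in hDISC1AA/+, against 4644, 6622 and 5867 in WT. The lowest library of each group, hDISC1AA/+ replicate 1 and WT replicate 1, stood below the other 5. The sum of 7 inhibitory neuron markers was lowest of all libraries in hDISC1AA/+ replicate 1, with 22798, and in WT replicate 1 it was 33786, within the range of the others. The 7 markers did not move together in hDISC1AA/+ replicate 1. Gad1 (9023), Gad2 (4641) and Vip (1169) were the lowest of all libraries there, and Pvalb (849) and Lhx6 (707) the highest. Slc32a1 and Sst lay within the range of the others. These markers were named after their values were seen. The log2 fold change of Gria4 was -0.028 (95% CI -0.48 to 0.42) with all libraries and 0.15 without hDISC1AA/+ replicate 1. Both had a limma adjusted p of 0.991 or more.

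The 3 TARP genes described here showed no shared direction. TARPs bind the subunits in the membrane, carry them to the surface and anchor them at PSD-95. Cacng2 (ENSMUSG00000019146, chr15:77991748-78120028), whose mutation causes the stargazer phenotype in mice, had 3081, 3017, 3632 and 3015 normalized counts in hDISC1AA/+, against 3359.9, 3586 and 3183 in WT. Its log2 fold change was -0.086 (95% CI -0.32 to 0.15), with hDISC1AA/+ replicate 3 above all WT libraries and the other 3 below them. It was -0.15 without that library and -0.042 without WT replicate 2. An antisense gene, A730060N03Rik, overlaps exons of Cacng2 and had at most 149 normalized counts. Cacng3 (ENSMUSG00000066189, chr7:122670492-122769393) had 7239, 5944, 7147 and 5477 normalized counts in hDISC1AA/+, against 5178, 6163 and 6289 in WT. Of its hDISC1AA/+ libraries, 2 lay above the WT range and 2 within it, with a log2 fold change of 0.13 (95% CI -0.16 to 0.42). It was 0.041 without WT replicate 1, 0.071 without hDISC1AA/+ replicate 1, 0.077 without hDISC1AA/+ replicate 3 and 0.21 without hDISC1AA/+ replicate 4. Cacng8 (ENSMUSG00000053395, chr7:3390683-3415648), encoding TARP gamma-8, which is known for its high level in the hippocampus, had 3618, 2254, 2256 and 2454 normalized counts in hDISC1AA/+, against 2759, 2292 and 2706 in WT. Here hDISC1AA/+ replicate 1 was the highest of all 7 libraries, and of the other 3, replicate 4 lay within the WT range and the remaining ones just below it. The log2 fold change of Cacng8 was 0.0086 (95% CI -0.38 to 0.40) with all libraries and -0.15 without hDISC1AA/+ replicate 1. The limma adjusted p was 0.974 or more for each of the 3 genes.

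The means of the cornichon genes differed in opposite directions. Cornichon proteins were described as cargo exporters of the endoplasmic reticulum and stay with AMPA receptors at the cell surface. Cnih2 (ENSMUSG00000024873, chr19:5092868-5098521) had 9943, 5783, 6469.8 and 5923 normalized counts in hDISC1AA/+, against 6865, 5977 and 5818 in WT. Again hDISC1AA/+ replicate 1 was the highest of all 7 libraries, and the log2 fold change was 0.14 (95% CI -0.28 to 0.56) with it and -0.036 without it. The coding gene Yif1a lies on the opposite strand and overlaps exons of Cnih2, with at most 402 normalized counts. The labels do not describe the libraries as strand-specific, so reads of such pairs cannot be told apart. Cnih3 (ENSMUSG00000026514, chr1:181352628-181460641) had 4394, 3057, 3010.1 and 3276 normalized counts in hDISC1AA/+, against 4553, 3401 and 3656 in WT. With hDISC1AA/+ replicate 1 the groups overlapped, and the other 3 hDISC1AA/+ libraries lay below all 3 WT libraries. On the log2 scale Cnih3 differed by -0.18 (95% CI -0.54 to 0.18) with all libraries and by -0.30 without that library, with limma adjusted p of 0.974 and 0.921. Without WT replicate 1, the highest of the WT libraries, it was -0.056.

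Shisa9, encoding CKAMP44, a membrane protein that affects the desensitization of AMPA receptors (ENSMUSG00000022494, chr16:11984113-12270902), was close to even. It had 3138, 4002, 3949 and 3778 normalized counts in hDISC1AA/+, against 3132, 4012 and 4104 in WT. In each group replicate 1 was the lowest and the remaining libraries lay between 3778 and 4104. Its difference was -0.0087 on the log2 scale (95% CI -0.31 to 0.29) with a limma adjusted p of 0.998.

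**Figure D2:**
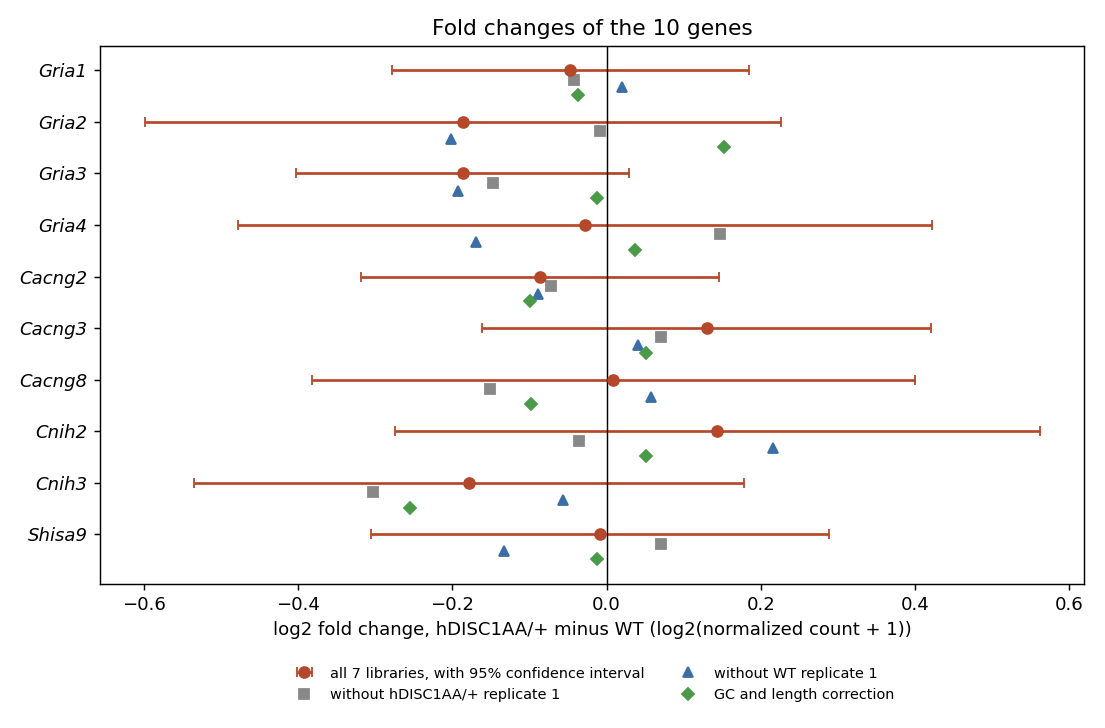
Log2 fold changes of the 10 genes, hDISC1AA/+ minus WT, with the limma 95% confidence interval for all 7 libraries, and as further symbols the value without hDISC1AA/+ replicate 1, without WT replicate 1, and with levels corrected for GC and length. All 10 intervals include 0. Gria3, Cacng2 and Cnih3 stay below 0 and Cacng3 above 0 in the 4 values shown, and the other 6 cross it.

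In hDISC1AA/+ replicate 1 the members' deviations from the other libraries went with base composition and with transcript length. Gria2, with the lowest GC content of the family (36.8% in its longest transcript), lay 0.71 below the mean of the other 6 libraries on the log2 scale in that library. Gria4 (44.3%) lay 0.63 below it and Shisa9 (47.2%) 0.28 below it. Gria3 was 0.23 below at 39.8% GC. Gria1 (48.5%) and Cacng2 (51.2%) stood near the others, with -0.038 and -0.094. Above the others were Cacng3 (0.27 at 54.6% GC), Cnih3 (0.35 at 53.3%), Cacng8 (0.57 at 65.0%) and Cnih2 (0.70 at 62.3%). Thus 6 members were lower and 4 higher in this library, and the 4 higher ones were those with the highest GC content. They were also the shortest by longest annotated transcript, with 1343 bases for Cnih2, 1897 for Cacng8, 2668 for Cnih3 and 2777 for Cacng3. Gria2 was the longest, with 10371 bases. The subunit genes have 4 of the 5 lowest GC values of the family. In this library family role, base composition and transcript length therefore cannot be told apart. In the other 6 libraries the deviations lay between -0.31 and 0.41. The part of base composition and length in the fold changes was examined only jointly, through the GC and length correction. After it 6 of 10 members were lower, beside 55.9% of all genes, with a median of -0.012, beside -0.025 over all genes. For Gria2 that correction moved replicate 1 from the lowest to the highest library, with 42987 beside 24865 to 26786 in the other hDISC1AA/+ libraries and 24526 to 29005 in WT.

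**Figure D3:**
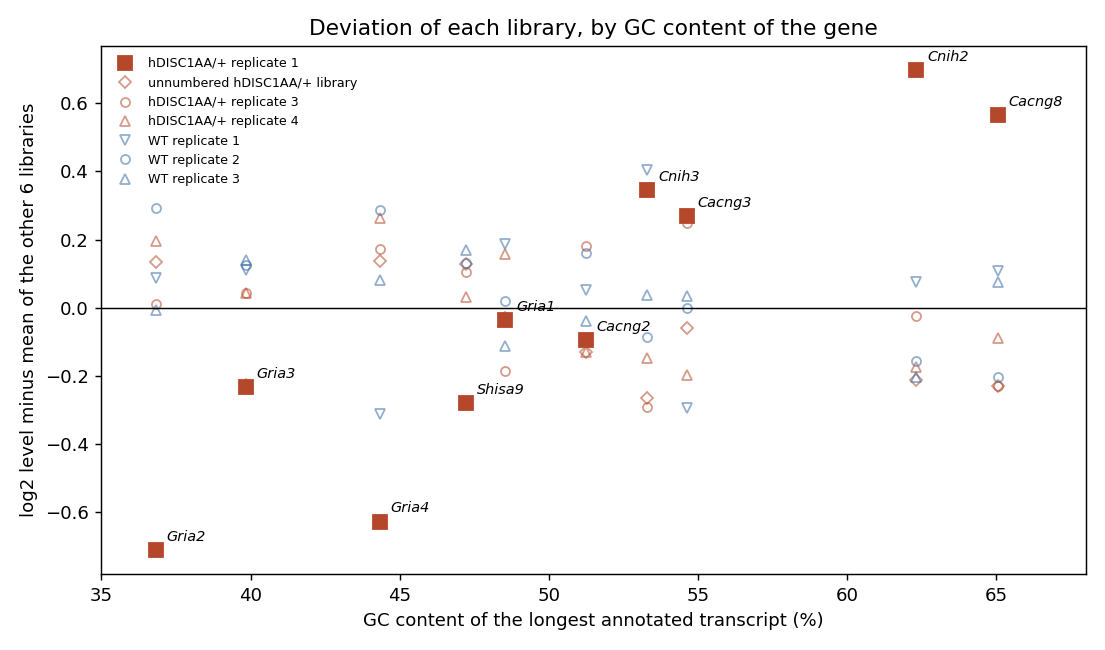
Deviation of each library from the mean of the other 6 on the log2 scale, against the GC content (%) of the longest annotated transcript of each gene; filled squares with gene names are hDISC1AA/+ replicate 1 and open symbols the other libraries (red for hDISC1AA/+, blue for WT). The filled squares lie between -0.71 for Gria2 at the low end of GC and 0.70 for Cnih2 near the high end, and the open symbols between -0.31 and 0.41.

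The make-up of the subunit, TARP and cornichon genes among the members was compared within libraries, where the size factor cancels. Per kilobase of merged exons, Gria2 took 21.7%, 29.7%, 28.1% and 28.0% of the sum of the 4 subunit genes in hDISC1AA/+, against 27.5%, 29.8% and 27.4% in WT. The lowest share was that of hDISC1AA/+ replicate 1, well apart from the other 6, and the means were 26.9% ± 3.54 in hDISC1AA/+ and 28.2% ± 1.34 in WT. Gria1 took 38.8% ± 4.38 in hDISC1AA/+ and 37.1% ± 2.98 in WT (SD, n = 4 and 3). Gria3 took 20.5% ± 1.84 in hDISC1AA/+ and 21.6% ± 1.14 in WT, and Gria4 13.8% ± 1.79 in hDISC1AA/+ and 13.1% ± 2.14 in WT. The groups overlapped for all 4 subunits. Cacng3 was the most abundant of the 3 TARP genes in every library, with 55.3% to 61.4% of their sum in hDISC1AA/+ and 51.1% to 57.7% in WT. The further genes Cacng4, Cacng5, Cacng7 and Cnih1 are not in these shares and sums, but in the list of other complex proteins given further below. Their means were 1396, 896, 5919 and 2080 normalized counts in hDISC1AA/+, and 1397, 827, 6294 and 2289 in WT. The sum of the 3 TARP genes per 100 of the subunit genes was 86.4, 55.4, 64.8 and 49.2 in hDISC1AA/+, against 52.8, 53.2 and 60.7 in WT. After the GC and length correction hDISC1AA/+ replicate 1 was the lowest library, with 53.0, and the difference in means was -1.99, beside 8.38 before it. The difference in the Gria1 share was -1.89 percentage points after it, beside 1.71 before it, and that in the Gria2 share 2.38, beside -1.31.

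Of 11 such shares and sums, the groups did not overlap for 1, the share of Cnih2 in the cornichon pair. Among single genes tested, 2.2% did not overlap and were higher in hDISC1AA/+, and 2.84% did not overlap and were lower. No such rate was computed for shares, and the 11 are built from the same genes and are not independent. It was 82.0%, 79.2%, 81.2% and 78.4% in hDISC1AA/+, against 75.2%, 77.9% and 76.2% in WT. All 4 hDISC1AA/+ libraries lay above the highest WT library, with a gap of less than 1 percentage point between 78.4% and 77.9%. The means were 80.2% ± 1.67 in hDISC1AA/+ and 76.4% ± 1.39 in WT. After the GC and length correction the hDISC1AA/+ libraries lay at 79.2% to 81.6% and the WT libraries at 74.7% to 79.0%. The share was singled out after its values were seen, and no test was made of it.

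**Figure D4:**
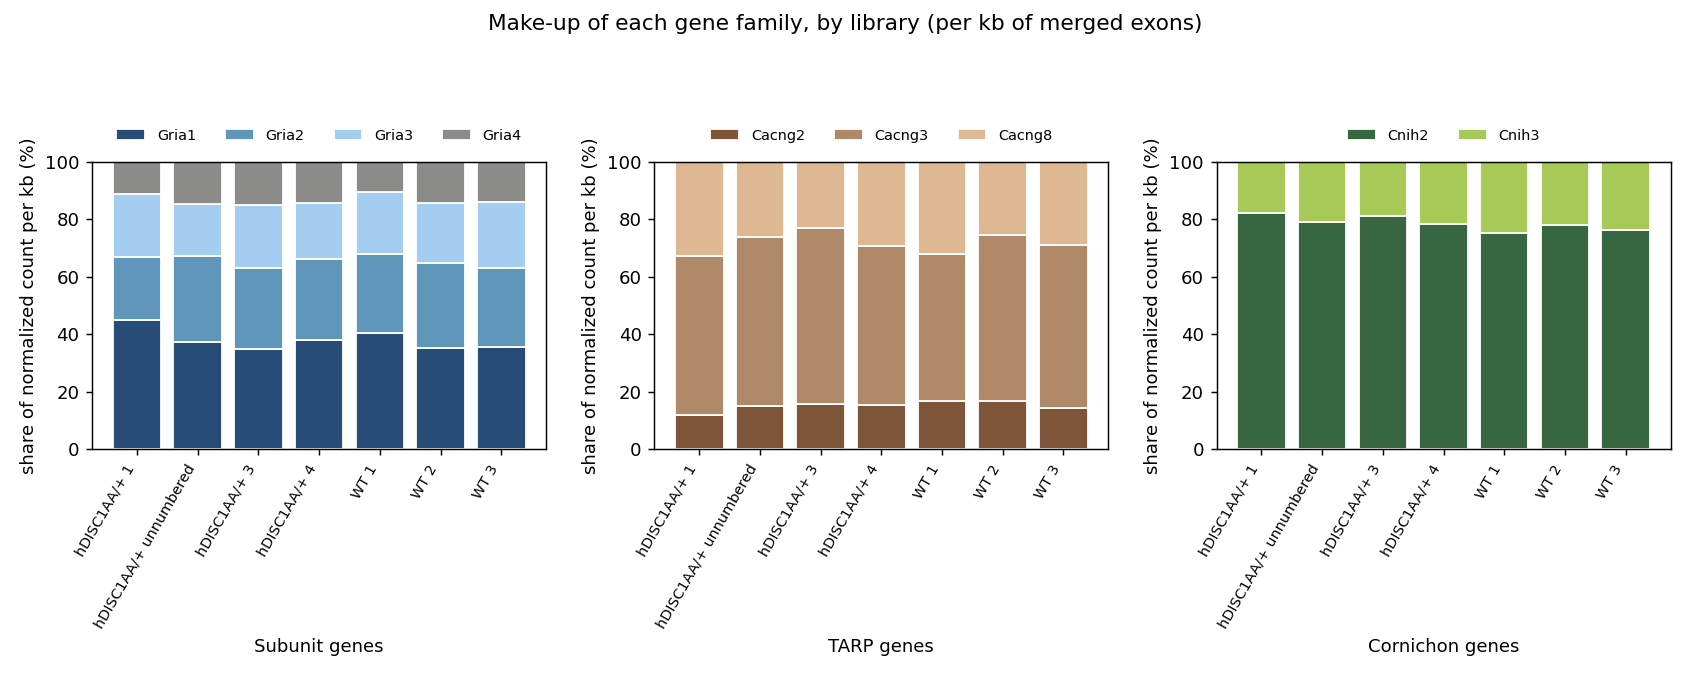
Shares (%) of the subunit, TARP and cornichon genes described here, each within its group of members. They are from normalized counts per kilobase of merged exons, with 1 stacked bar per library, hDISC1AA/+ left of WT. Gria2 takes 21.7% in the first hDISC1AA/+ bar and 27.4% to 29.8% in all later bars, and Cnih2 takes 78.4% to 82.0% of the cornichon pair in hDISC1AA/+ and 75.2% to 77.9% in WT.

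Other genes that build, carry or modify the receptor were described with 2 further lists, and none of their genes passed the threshold. Of 25 other proteins found in AMPA receptor complexes, 16 were lower and 9 higher in hDISC1AA/+, where 52.2% of all genes tested were lower. Their median log2 fold change was -0.062, beside -0.0092 over all genes. Of the 25, 1 had an unadjusted limma p under 0.05, beside 2.44% of all genes tested. That gene was Vwc2l, a secreted brorin-like protein, with 227, 195, 244 and 183 normalized counts in hDISC1AA/+, against 256, 320 and 267 in WT. Its groups did not overlap, and it differed by -0.40 on the log2 scale (95% CI -0.77 to -0.039). The limma adjusted p was 0.974 for it and for each other gene named in this paragraph. The others of that list with the smallest p were the small GTPase gene Rap2b (-0.26), the phosphoinositide phosphatase gene Sacm1l (-0.26) and Gsg1l (0.17), an auxiliary protein that dampens receptor currents. Without hDISC1AA/+ replicate 1, Rap2b was at -0.13, Sacm1l at -0.11 and Gsg1l at 0.12. Of 24 genes of trafficking, clustering and modification, 19 were lower and 5 higher in hDISC1AA/+ (median -0.093), beside 52.2% of all genes lower. Of the 24, 0 had an unadjusted limma p under 0.05, beside 2.44% of all genes tested. Those with the smallest p were the synaptic adhesion gene Lrrtm2 (log2 fold change -0.47), the motor gene Myo5a (-0.24), Dlg1 (-0.21), which encodes SAP97, and Rab11a (-0.39), a GTPase of recycling endosomes. Without hDISC1AA/+ replicate 1, Lrrtm2 was at -0.27, Myo5a at -0.19 and Dlg1 at -0.14, and with array weights Lrrtm2 was at -0.13. Without hDISC1AA/+ replicate 1, 19 of the 25 and 19 of the 24 genes were lower, with medians of -0.089 and -0.13, and 50.7% of all genes tested were lower. Without WT replicate 1, 16 and 17 were lower, with medians of -0.050 and -0.041, beside 51.7% of all genes. After the GC and length correction 19 and 22 were lower, with medians of -0.12 and -0.11, beside 55.9% of all genes and a median of -0.025. With array weights 14 and 18 were lower, with medians of -0.043 and -0.077, beside 51.2% of all genes. No list was tested as a whole.

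In the trafficking list the groups did not overlap for 2 genes, Rab11a and Adarb1, both lower in hDISC1AA/+, where 2.84% of all genes tested did not overlap and were lower. In the list of complex proteins Vwc2l was the 1 such gene of 25. Rab11a had 2376, 4029, 4217 and 4249.7 normalized counts in hDISC1AA/+, against 5303, 4545 and 4420.1 in WT. Its difference on the log2 scale was -0.39 with all libraries and -0.19 without hDISC1AA/+ replicate 1, the lowest library. Adarb1, the editing enzyme of the Gria2 codon shown above, had 8808, 9242, 9591 and 10046 normalized counts in hDISC1AA/+, against 10214.5, 10342 and 10770.1 in WT. It differed by -0.15 on the log2 scale (95% CI -0.34 to 0.041) at a limma adjusted p of 0.974, and the gap between the nearest libraries of the groups was smaller than the spread within hDISC1AA/+. Adarb1 was singled out after its values were seen. Editing itself was not measured in these counts.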

How the data were processed

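The authors deposited 1 table for 7 libraries. Its unit is a signal: the deposited values are reads per gene over a size factor of the library. In every column 100% of values were whole multiples of 1 step (within 0.01 reads), which gave back the reads. Per the submitters' processing notes, the build was mm10 and the listed tools are DESeq2 1.26.0, HTSeq 0.6.1, HISAT2 2.1.0 and Trimmomatic 0.39, in a list that states neither role nor order. The strand setting and the handling of multiply mapped reads were not stated in the sources used. A further 3 genes, split over separate lines, were omitted. Annotation came from GENCODE M21 (GRCm38), matching 42545 of 43626 identifiers.

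Tested genes reached 10 normalized counts in 3 or more libraries. The test was limma 3.58.1 (trend, robust) on log2(normalized count + 1), without covariates. It was two-sided, with Benjamini-Hochberg adjustment over all genes. The column whose number is in no title entered as hDISC1AA/+. Alternatives were edgeR 4.0.16 and DESeq2 1.42.0 on recovered reads, other scalings, pseudocounts of 0.5 and 5, no filter, array weights, GC and length correction (mgcv 1.9.3) and omitted libraries. Scripts were tested on simulated counts. There limma called 14.9% of genes changed 1.5-fold, 59.7% of those changed 2-fold and 97.0% of those changed 4-fold, with 7 false calls. Genes were simulated independently, so deviations shared by many genes of a library were absent. Members and lists were chosen with earlier results of these data known. Named genes were the 10 members and, from each further list, the 4 with the smallest p, with exceptions stated.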

Additional observations from a re-analysis of the deposited data

Results flagged for a closer look

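Of 21 gene counts and family shares examined in the 4 hDISC1AA/+ libraries, 3 had 1 library far from the other 3 by Dixon's criterion (gap over range above 0.829). Chance alone gives about 1 in 20 for a single item. The shares were computed from the same gene counts in the same libraries, so the 21 are not independent and their number flagged cannot be set against that rate. Cacng2 had 3632 normalized counts in hDISC1AA/+ replicate 3, beside 3015 to 3081 in the remaining hDISC1AA/+ libraries. Cacng8 stood at 3618 in hDISC1AA/+ replicate 1, beside 2254 to 2454 in the remaining ones. Cnih2 stood at 9943 in the same library, beside 5783 to 6469.8. Cacng8 and Cnih2 have the highest GC content of the family, 65.0% and 62.3%. By longest annotated transcript they are also its shortest genes, with 1897 and 1343 bases. The part of either in their values was not tested.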

How the results depend on the processing

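The count of 0 genes past the threshold was the same under the 17 alternatives. No member passed under any of them, and the smallest adjusted p of a member was 0.456, for Cnih3 with array weights. There the unadjusted p was 0.0346 for Cnih3 and 0.0452 for Gria3, with 1823 genes under 0.05. The unadjusted limma p of Cnih3 was also 0.0298 without hDISC1AA/+ replicate 1, where 512 of 17534 genes were under 0.05. Without WT replicate 1 and hDISC1AA/+ replicate 1 together it was 0.0483, with 580 of 17374 genes under 0.05. Of the refitted member values, 149 kept their direction and 21 did not. Gria3, Cacng2 and Cnih3 kept theirs under the 17 alternatives, with Gria3 between -0.23 and -0.012. With array weights, which give WT replicate 3 a weight of 5.23 and every other library 1.74 or less, the log2 fold change was 0.043 for Gria1, 0.013 for Gria2, 0.039 for Gria4 and -0.15 for Cacng8, and the median of the members was 0.0048. After the GC and length correction it was 0.15 for Gria2, 0.037 for Gria4 and -0.097 for Cacng8, and the difference in the Gria2 share was 2.38 percentage points, beside -1.31 without correction. With upper-quartile scaling Shisa9 was at 0.011. Without WT replicate 1 and hDISC1AA/+ replicate 1 together, Gria1 was at 0.024, Gria4 at 0.0060, Cacng3 at -0.018 and Cacng8 at -0.10. With each library left out in turn, the log2 fold change ranged from -0.11 to 0.020 for Gria1, -0.17 to 0.15 for Gria4, -0.15 to -0.042 for Cacng2, 0.041 to 0.21 for Cacng3, -0.15 to 0.076 for Cacng8, -0.036 to 0.22 for Cnih2 and -0.13 to 0.070 for Shisa9. The median of the members ranged from -0.080 to -0.039 and the Gria2 share difference from -2.25 to 0.41 percentage points. The causes of these shifts were not tested. No paired analysis was possible because the replicate numbers used here only follow the order of the sample list, and no label ties a hDISC1AA/+ library to a WT library by litter, batch or day. Counting error was well below the spread between libraries for each member in each group, except Gria3 in WT, where they were of similar size.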
